A study of Mus musculus with 46 samples.

Results

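The genes described here encode the megalin and cubilin uptake system of the kidney proximal tubule (PT). They were chosen by name, as Lrp2, Cubn, Amn, Dab2, Ap2a1, Clcn5, Rab11a and Ehd1, and all 8 were found among the 53465 genes measured. RNA was sequenced from PT cells (LTL+), macrophages (F4/80+), endothelial cells (CD31+) and stromal cells (PDGFRB+), sorted from kidneys of wild-type (WT) mice. They were males of the C57BL/6 strain, 8 to 12 weeks old. The mice had sham surgery, unilateral ureteric obstruction (UUO), or UUO followed by reimplantation of the ureter to reverse the obstruction (rUUO). By the methods, obstructed kidneys were taken on day 2 or day 7 and those with a reimplanted ureter 14 days after the second operation, and the labels do not say which UUO samples belong to which day. For PT cells there were 3 sham, 4 UUO and 3 rUUO samples. The macrophage groups held 4, 4 and 3 samples in the same order, the endothelial groups 4, 3 and 4, and each stromal group 4. The PT sample named UUO replicate 2 here has a title holding both SHAM and UUO and was grouped by its treatment label. The labels do not say whether samples of the same number came from the same mouse, so p-values measure the spread between these samples.

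Megalin, encoded by Lrp2, and cubilin, encoded by Cubn, are very large receptors of the apical membrane of PT cells. They take filtered albumin, vitamin carriers and small proteins back from the tubular fluid. Cubilin has no membrane-spanning segment of its own and needs amnionless, encoded by Amn, to reach the cell surface. Dab2 is the adaptor that joins the receptors to the clathrin coat, and Ap2a1 encodes an alpha subunit of the AP-2 clathrin adaptor. Clcn5 encodes ClC-5, an endosomal chloride and proton exchanger whose loss in Dent disease causes urinary loss of small proteins. Rab11a and Ehd1 encode a small GTPase and an ATPase that return receptors from endosomes to the membrane.

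Values are FPKM, which divide the fragments of a gene by its transcript length and by the total mapped in that sample, so levels of different genes can be compared per length. The 37 mitochondrial genes took 68.9% to 75.6% of the FPKM sum in PT sham samples. After UUO this share was 58.7% to 66.4% in PT cells, and after reversal it was 68.1% to 71.3%. Their share was 20.2% to 45.8% in the other populations. In sham kidneys 8 PT marker genes, among them Slc34a1 and Hnf4a, summed to 2461 to 3367 FPKM in PT cells. The same sum was 117 to 156 FPKM in sham macrophages, 55.1 to 181 in sham endothelial cells and 39.9 to 63.8 in sham stromal cells. A sum of 8 macrophage markers was 5117 to 10254 FPKM in macrophages and 17.7 to 47.0 in PT samples, and one of 8 endothelial markers 2791 to 3850 in endothelial cells and 12.3 to 36.0 in PT samples. In PT samples, 3 markers of the thick ascending limb and distal tubule summed to 26.1 to 40.8 FPKM in sham kidneys. That sum was 149 to 201 with UUO and between 50 and 152 with rUUO. The sum of 2 collecting duct markers in PT samples was at most 5.62 FPKM in sham, at least 16.4 with UUO and 7.27 to 22.2 with rUUO. Depth is unknown, because FPKM of 2 decimals carry no read counts.

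**Figure D1:**
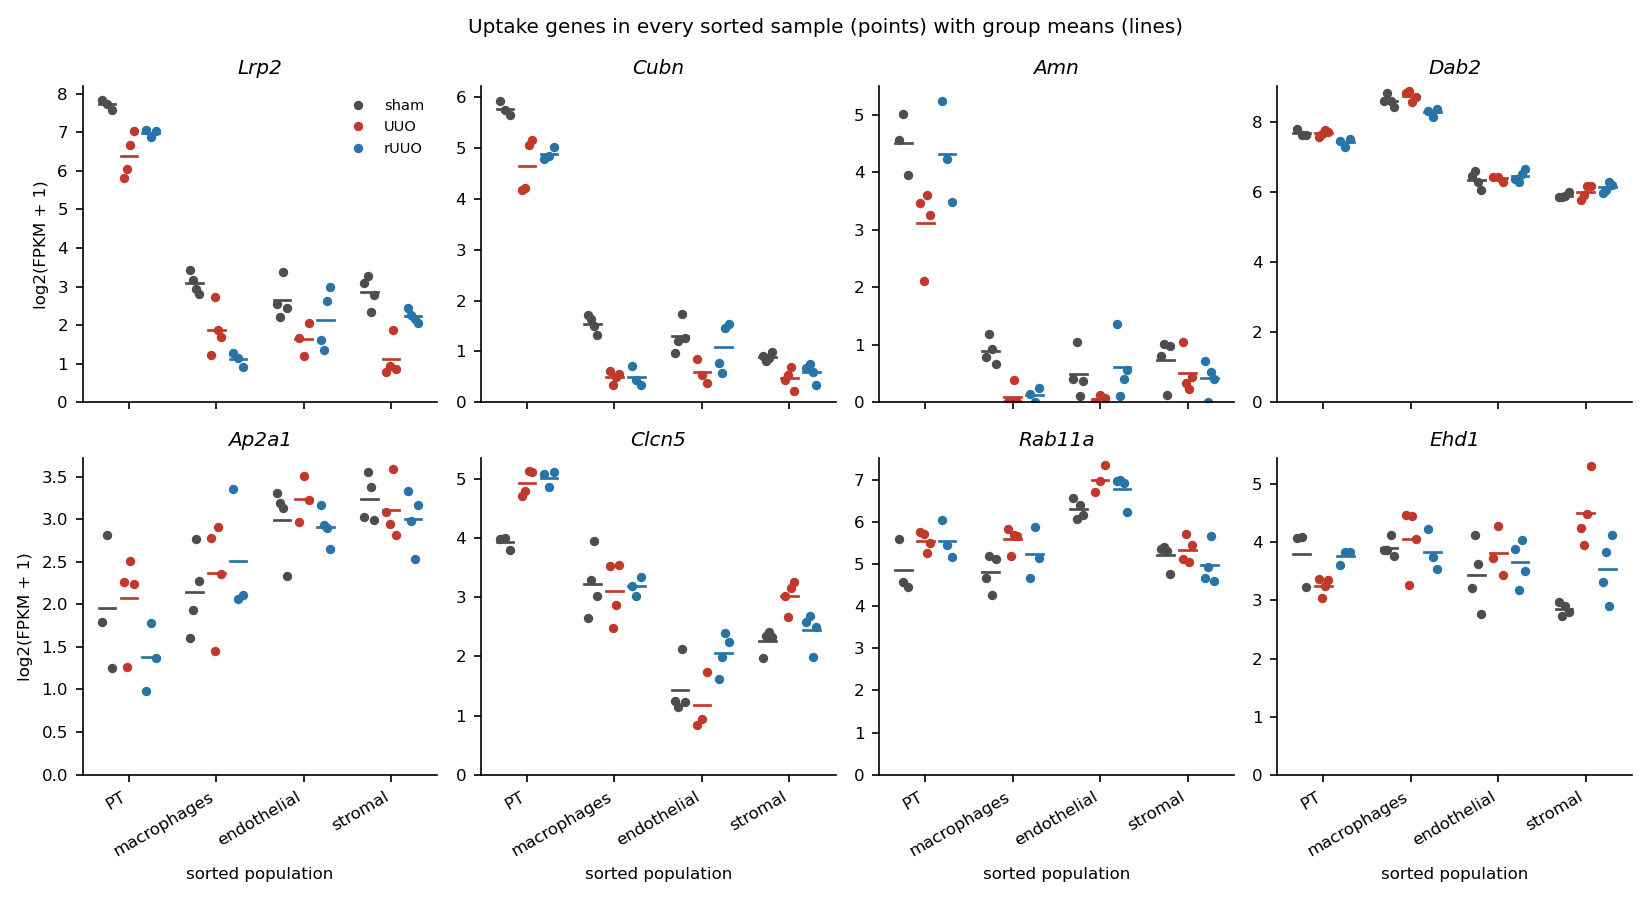
Each panel plots 1 gene as log2(FPKM + 1) on the vertical axis against the sorted population, with 1 point per sample, sham in grey, UUO in red and rUUO in blue, and a line at each group mean. Lrp2, Cubn and Amn were highest in PT cells, Dab2 in macrophages and Rab11a in endothelial cells.

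In sham kidneys the receptor genes were carried by the PT population, whereas the intracellular genes were shared among populations. Lrp2 had 229, 213 and 189.7 FPKM in the 3 PT sham samples, a mean of 210.3 ± 19.6 (SD, n = 3). Its highest value in any sham sample of another population was 9.75 FPKM, in a macrophage sample. Every PT sample, obstructed or not, lay far above every sample of the other populations.

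Cubn had 60.2, 52.6 and 49.3 FPKM in PT sham cells (54.0 ± 5.59, SD, n = 3). Amn had 22.6, 31.4 and 14.5 FPKM (22.8 ± 8.44, SD, n = 3), a wider relative spread than that of both receptors. On the per-length scale PT sham cells thus held 3.90 times as much Lrp2 as Cubn (mean of the ratios within a sample). Outside PT cells, Cubn reached 2.32 FPKM and Amn 1.56 FPKM at most.

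In a limma fit across the 4 sham populations, the log2 difference of Lrp2 between PT cells and macrophages was 4.64 (SE 0.28, limma adjusted p = 2.69e-10), and those from endothelial and stromal cells were 5.08 and 4.85. Cubn differed by 4.23, 4.48 and 4.88 and Amn by 3.62, 4.02 and 3.78, all past the threshold of 0.05. These are differences on the log2(FPKM + 1) scale, which understates them for low values.

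The adaptor did not follow the receptors. Dab2 had 221, 198 and 197 FPKM in PT sham cells, about as much as Lrp2. In sham macrophages it had 391, 456, 386 and 344 FPKM, so that each macrophage sample lay above each PT sample. The log2 difference between PT cells and macrophages was −0.93 (SE 0.16, limma adjusted p = 5.31e-05). That direction depends on the scaling of whole samples, since it was 0.20 with quantile normalization and 0.25 after rescaling without mitochondrial genes, neither past the threshold. Dab2 was higher in PT cells than in endothelial cells (81.4 ± 13.05 FPKM, SD, n = 4) by 1.34, and than in stromal cells (58.9 ± 3.07 FPKM, SD, n = 4) by 1.78.

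Clcn5 had 14.74, 15.04 and 12.96 FPKM in PT sham cells. The 4 sham macrophage samples had 5.29, 8.77, 14.4 and 7.09 FPKM and overlapped with them. It was higher in PT cells than in endothelial cells by 2.50 (SE 0.31, limma adjusted p = 2.21e-06) and than in stromal cells by 1.66, whereas the difference of 0.70 from macrophages did not pass (limma adjusted p = 0.0549).

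Ap2a1 was a low gene everywhere, with 2.46, 6.03 and 1.38 FPKM in PT sham cells and group means from 1.66 to 8.53 FPKM. It was lower in PT cells than in endothelial cells by a log2 difference of −1.04 and than in stromal cells by −1.28. The difference from endothelial cells was not called without PT sham replicate 1 (limma adjusted p = 0.0673), PT sham replicate 4 (0.145) or endothelial sham replicate 1 (0.0544). Under quantile normalization the differences were 0.06 and −0.07, and neither was called.

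Rab11a was highest in endothelial cells, with 94.3, 66.7, 83.3 and 70.8 FPKM against 47.2, 22.9 and 20.9 in PT sham cells. No PT sham sample reached the endothelial range. The log2 difference was −1.43 (SE 0.28, limma adjusted p = 0.000321), and −0.53 with quantile normalization and −0.63 after rescaling without mitochondrial genes, where it was not called. Ehd1 had 15.8, 16.0 and 8.37 FPKM in PT sham cells and was called only against stromal cells, with a difference of 0.94 (limma adjusted p = 0.00894).

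Of the 8 genes, 4 were called between PT cells and macrophages, where 64.9% of all genes tested were called. Against endothelial cells 7 of 8 were called, beside 62.3% of all genes, and against stromal cells 7 of 8, beside 67.6%. The median log2 difference of all genes tested was −0.90, −0.93 and −1.06 in these comparisons, while the median of the 8 genes was 0.38, 1.92 and 1.72. With quantile normalization the medians of all genes were 0.00, −0.06 and −0.05, and higher and lower calls were nearly balanced (3726 and 3923 against macrophages, where the fit above gave 1784 and 7439). All 3 comparisons share the PT sham samples.

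The promoters of the 3 receptor genes are shown because these genes are the PT-restricted ones of the set. Each sequence holds 250 bases before and 50 after a gene start on the RefSeq annotation of GRCm38.p6, on the gene's own strand, with GC boxes (GGGCGG, or CCGCCC on the other strand) in capitals. The Lrp2 window is chr2:69585980-69586279 on the minus strand, that of Cubn chr2:13491827-13492126 on the minus strand and that of Amn chr12:111270846-111271145 on the plus strand. The Cubn window, with its 50 bases after the start, lies wholly before the gene as placed below, which begins at 13491813 on the minus strand. The start used for this window therefore differs from that placement.
Lrp2: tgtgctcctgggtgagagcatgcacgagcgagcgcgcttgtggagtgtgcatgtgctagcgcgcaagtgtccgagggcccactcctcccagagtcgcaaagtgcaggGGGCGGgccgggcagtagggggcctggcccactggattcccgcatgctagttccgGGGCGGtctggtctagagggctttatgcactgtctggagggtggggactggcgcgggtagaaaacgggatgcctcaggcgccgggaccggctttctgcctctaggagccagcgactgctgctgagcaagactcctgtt
Cubn: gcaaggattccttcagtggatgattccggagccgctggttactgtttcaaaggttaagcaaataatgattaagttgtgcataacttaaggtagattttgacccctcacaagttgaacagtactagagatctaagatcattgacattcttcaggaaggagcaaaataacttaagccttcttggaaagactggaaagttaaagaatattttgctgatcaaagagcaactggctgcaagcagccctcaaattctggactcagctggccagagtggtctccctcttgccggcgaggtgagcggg
Amn: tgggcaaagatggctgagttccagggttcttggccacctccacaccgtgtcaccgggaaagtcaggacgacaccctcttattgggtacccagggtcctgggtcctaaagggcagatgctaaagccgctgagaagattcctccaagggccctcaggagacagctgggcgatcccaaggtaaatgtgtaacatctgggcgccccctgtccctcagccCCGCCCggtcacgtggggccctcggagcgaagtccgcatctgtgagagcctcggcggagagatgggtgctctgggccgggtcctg
The Lrp2 window held 2 GC boxes and had 65% G and C, the Amn window held 1 with 62.3%, and the Cubn window held 0 with 44.3%. Of 32851 promoter windows of the same length, 35.7% held at least 1 GC box on either strand. The letters GTTAAT, part of the site of HNF1 factors, were in none of the 3 windows and in 7.1% of all windows, CAAAGTCCA (an HNF4 site) in none and in 0.475%, and TGACTCA (an AP-1 site) in none and in 5.2%. Windows were found for 7 of the 8 genes, all but Ehd1. Among the other members, GC boxes were in the Ap2a1 window (4 matches), the Rab11a window (3) and 1 of the Clcn5 windows, and GTTAAT in 1 of the Dab2 windows. A match is a description of the letters and not of binding.

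On the same assembly, Lrp2 (ENSMUSG00000027070.14) lies on chromosome 2 from 69424340 to 69586065 and Cubn (ENSMUSG00000026726.10) on chromosome 2 from 13276338 to 13491813. Amn (ENSMUSG00000021278.7) lies on chromosome 12 from 111271095 to 111276426, Dab2 (ENSMUSG00000022150.16) on chromosome 15 from 6299788 to 6440712, and Clcn5 (ENSMUSG00000004317.14) on chromosome X from 7153810 to 7319358. Ap2a1 (ENSMUSG00000060279.14) lies on chromosome 7 from 44900373 to 44929496, Rab11a (ENSMUSG00000004771.12) on chromosome 9 from 64715299 to 64737758, and Ehd1 (ENSMUSG00000024772.9) on chromosome 19 from 6276725 to 6300096. All 8 are protein-coding and had the same coordinates in GENCODE M21.

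Obstruction was compared with sham in PT cells to ask how the uptake genes respond to injury. The receptors and the amnionless partner fell, the chloride exchanger rose, and the adaptor Dab2 had no change beyond the spread of the samples. Of the 8 genes 4 were called (1 higher and 3 lower), where 32.8% of all genes tested were called. The median log2 change of the 8 was −0.27, and that of all genes tested was 0.51, so single changes are read against this shift. Of all genes called, 3186 were higher and 561 lower, but 1283 and 1196 with quantile normalization, where the median was −0.02, and 1940 and 863 after rescaling without mitochondrial genes. In sorted samples, fewer cells of a type and less RNA per cell cannot be told apart.

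Lrp2 had 55.0, 64.9, 101 and 131 FPKM in the 4 UUO samples, against 189.7 to 229 in sham. Every UUO sample was below every sham sample, and the UUO mean was 41.7% of the sham mean. The log2 change was −1.33 (SE 0.25, limma adjusted p = 0.00132), and −1.63 to −1.33 under the other settings. Cubn had 17.2, 17.5, 32.5 and 34.7 FPKM in UUO, also without overlap with sham, at 47.1% of the sham mean. Its log2 change was −1.12 (SE 0.26, limma adjusted p = 0.00512).

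For both receptors UUO replicates 1 and 2 were the low pair and replicates 3 and 4 the high pair. Dab2 and Clcn5, which did not fall, had the same low and high pairs. For Rab11a replicates 1 and 2 were the high pair, and Amn, Ap2a1 and Ehd1 had no such split. The labels give no day of obstruction that could be set beside this split. Amn had 9.98, 3.34, 11.2 and 8.58 FPKM in UUO, below the lowest sham value of 14.5. Its log2 change was −1.40 (SE 0.43, limma adjusted p = 0.0223), and it was not called without PT sham replicate 1 (limma adjusted p = 0.0598), PT sham replicate 2 (0.0911) or PT UUO replicate 2 (0.0566), nor with no filter on low values (0.104).

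Dab2 had 191, 202, 220.2 and 212 FPKM in UUO, and overlapped with the sham range of 197 to 221. The log2 change was 0.01 (SE 0.15, limma adjusted p = 0.979). Under quantile normalization it was −0.33 and after rescaling without mitochondrial genes −0.29, neither called. Ap2a1 had 3.81, 1.41, 4.68 and 3.72 FPKM in UUO, inside the sham range, with a log2 change of 0.12 (SE 0.41, limma adjusted p = 0.841).

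Clcn5 moved the other way from the receptors. It had 25.1, 26.7, 34.1 and 33.6 FPKM in UUO against 12.96 to 15.04 in sham, so the groups did not overlap. The log2 change was 1.01 (SE 0.20, limma adjusted p = 0.00195), past the median of all genes, and it was 0.62 with quantile normalization (still called). The summed markers of the thick ascending limb and collecting duct given above were higher in the same UUO samples than in PT sham samples, and their part in the rise of Clcn5 was not tested.

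The recycling genes did not pass in PT cells. Rab11a had 53.7, 51.9, 37.4 and 44.1 FPKM in UUO and overlapped with sham through PT sham replicate 1 at 47.2 FPKM. The log2 change was 0.69 (SE 0.29, limma adjusted p = 0.0798), and it was called without that replicate (1.05, limma adjusted p = 0.0135) and with the replicate block (0.79, limma adjusted p = 0.0372). Ehd1 had 9.28, 7.23, 8.48 and 9.18 FPKM in UUO and overlapped with sham through PT sham replicate 4 at 8.37 FPKM. Its log2 change was −0.55 (SE 0.25, limma adjusted p = 0.112), and it was called as lower without that replicate (−0.83, limma adjusted p = 0.0303), with quantile normalization (−1.02) and after rescaling without mitochondrial genes (−0.82).

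**Figure D2:**
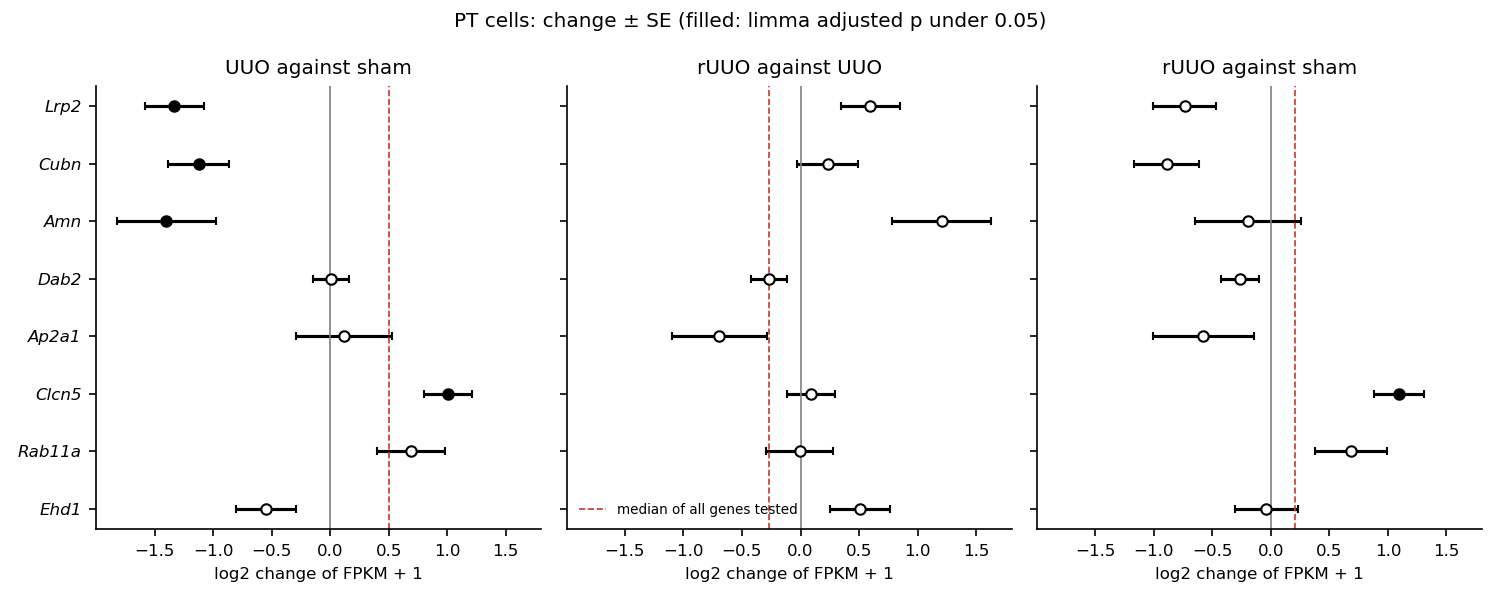
The horizontal axes give the log2 change of FPKM + 1 in PT cells with its standard error for UUO against sham, rUUO against UUO and rUUO against sham, with filled points for a limma adjusted p under 0.05 and a dashed line at the median of all genes tested. Lrp2, Cubn and Amn lay at −1.33, −1.12 and −1.40 after obstruction, and Clcn5 at 1.01 and still at 1.10 after reversal.

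After reversal the means of the receptor genes stood between the obstructed and the sham level, and Clcn5 was still higher than in sham. Between rUUO and UUO 0 of the 8 genes were called by limma, where 3.83% of all genes tested were called and 2448 had an unadjusted p under 0.05. Lrp2 had 131, 116 and 131 FPKM in rUUO, which overlapped with the highest UUO samples. The log2 change against UUO was 0.60 (SE 0.25, limma adjusted p = 0.192). Cubn had 26.7, 27.7 and 31.6 FPKM, inside the UUO range, with a change of 0.23 (SE 0.26, limma adjusted p = 0.637).

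Amn had 36.7, 17.8 and 10.2 FPKM in rUUO, from above the highest sham sample down to the UUO range. The change against UUO was 1.20 (SE 0.43, limma adjusted p = 0.127). A fit on all 4 populations called it (limma adjusted p = 0.0461). Dab2 had 175, 154 and 184 FPKM, below every UUO and every sham sample, with changes of −0.27 against UUO and −0.26 against sham (limma adjusted p = 0.318 and 0.38). Ehd1, at 11.2, 13.2 and 13.3 FPKM, lay above every UUO sample without being called (0.51, limma adjusted p = 0.261), Ap2a1 had a change of −0.69 (0.336) and Rab11a of −0.01 (0.99).

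Against sham, 1 of the 8 genes was called in rUUO, where 7.46% of all genes tested were called. This was Clcn5, at 33.1, 28.0 and 33.8 FPKM, with a change of 1.10 (SE 0.22, limma adjusted p = 0.00547). Every rUUO sample lay above every sham sample and inside the UUO range. Lrp2 stood at 59.8% and Cubn at 53.0% of the sham mean, both below every sham sample. Their changes of −0.74 (SE 0.27) and −0.89 (SE 0.28) were not called (limma adjusted p = 0.121 and 0.0688), although Cubn was called after rescaling without mitochondrial genes (limma adjusted p = 0.0357) and in the fit on all 4 populations (0.0337). The changes of Amn (−0.19), Ap2a1 (−0.58), Rab11a (0.68) and Ehd1 (−0.04) were not called either. The PT comparisons share samples with each other.

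The other genes of the uptake pathway were taken from a list of 55, of which 53 were tested in PT cells. In UUO against sham 13 were called as higher and 8 as lower, where 32.8% of all genes tested were called. The median change was 0.22, beside 0.51 for all genes. All 4 tested genes of receptor partners and cargo fell. Tcn2, which encodes the vitamin B12 carrier transcobalamin 2, a megalin ligand, fell from 436 to 138 FPKM (log2 change −1.64, SE 0.20, limma adjusted p = 2.94e-05). Lrpap1, the chaperone that helps megalin fold, fell from 114 to 43.6 FPKM (−1.37), and Folr1 (−0.80), a folate receptor, and Fcgrt (−0.65), the neonatal Fc receptor that salvages albumin, fell less.

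Genes of endosome acidification were called in both directions, with 5 of 13 higher and 2 lower. Atp6ap1, an accessory subunit of the vacuolar proton pump, rose from 38.6 to 119 FPKM (log2 change 1.61, SE 0.17, limma adjusted p = 1.11e-05), and Atp6v0a4, a membrane subunit of the same pump, rose from 38.8 to 113 (1.51). Slc9a3, the apical sodium and proton exchanger NHE3, fell from 17.2 to 5.80 FPKM (−1.46). Pump subunits are abundant in intercalated cells of the collecting duct as well, and the part of the distal and collecting duct markers in these rises was not tested.

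Among early endosome genes Rabep1, an effector of Rab5, rose from 3.83 to 12.05 FPKM (log2 change 1.47), and 2 of 7 rose in all. Recycling genes had 4 of 10 higher and 1 lower, adaptors and motor 1 of 3 higher and 1 lower, and the clathrin coat 1 of 12 higher. The count for recycling rests on the scaling, with 0 higher and 1 lower after quantile normalization and 1 of each after rescaling without mitochondrial genes, whereas all 4 receptor partners fell under both. Of 4 late endosome and lysosome genes limma called 0, but 3 as lower after quantile normalization and 2 after rescaling. By comparison 7 of the 8 PT markers fell, with a median of −2.06, and Slc34a1, the phosphate cotransporter, fell by 2.10.

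**Figure D3:**
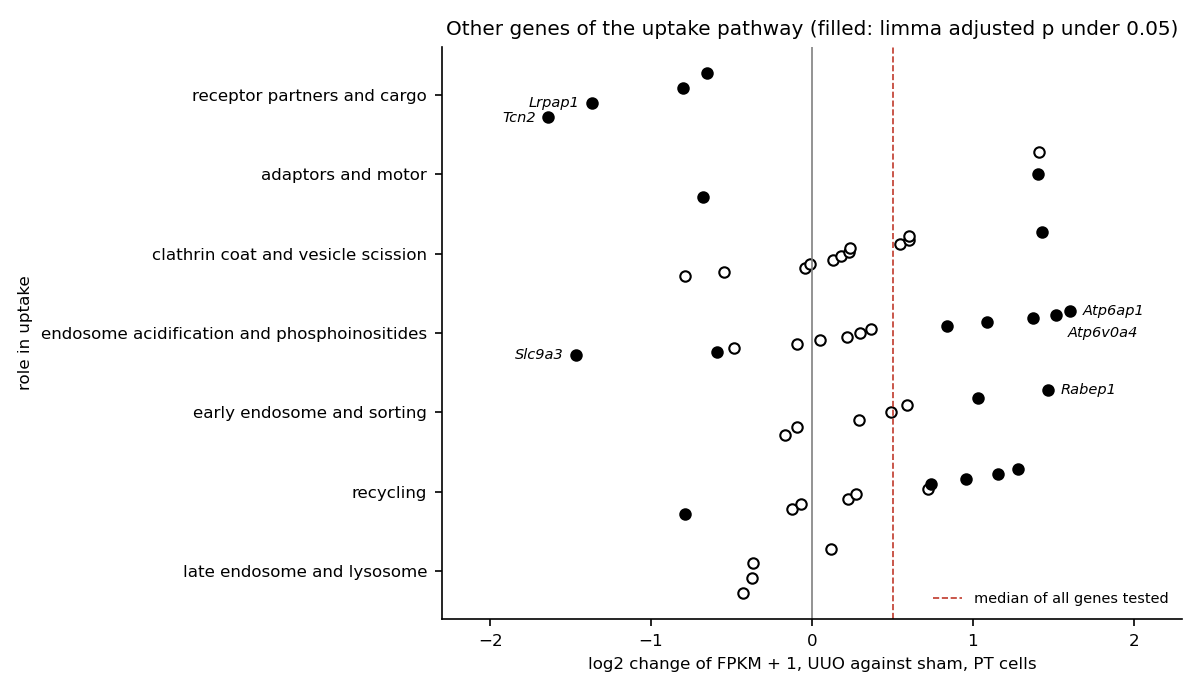
Each point is 1 of the 53 tested pathway genes in PT cells, placed by its log2 change of FPKM + 1 in UUO against sham on the horizontal axis and by its role on the vertical axis, filled where limma gave an adjusted p under 0.05. The 4 genes of receptor partners and cargo lay between −1.64 and −0.65, and Atp6ap1, Atp6v0a4 and Rabep1 lay at the upper end.

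After reversal, 4 of the 53 pathway genes tested were lower and 1 higher than in UUO, where 3.83% of all genes tested were called. Of all genes called, 360 were lower and 77 higher, but 135 and 197 with quantile normalization. All 4 pathway genes that fell were proton pump genes, among them Atp6v0a4 (log2 change −0.94, limma adjusted p = 0.0109) and Atp6ap1 (−0.84, limma adjusted p = 0.0215). Tcn2 rose by 0.77 (limma adjusted p = 0.0459). After quantile normalization and after rescaling without mitochondrial genes all 4 receptor partners were called as higher than in UUO, and 2 of the acidification genes as lower. Atp6ap1 was still called under both (limma adjusted p = 0.0437 and 0.0440), but Atp6v0a4 was not (limma adjusted p = 0.0594 and 0.0550). Against sham, Atp6ap1 was still higher (0.76) and Tcn2 still lower (−0.87), where 7.46% of all genes tested were called. In this fit the other 51 tested pathway genes were not called. Lrpap1 was called as lower than in sham after quantile normalization (−0.84, limma adjusted p = 0.0417) and after rescaling without mitochondrial genes (−0.79, 0.0353). Slc9a3 was called as lower than in sham after quantile normalization (−0.98, limma adjusted p = 0.0477) but not after rescaling (0.0737). Clcn5, which acts on the same endosomes, did not fall with the pump genes (0.09, limma adjusted p = 0.834).

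In the other 3 populations the receptor genes were low. In sham macrophages Lrp2, Cubn and Amn had 3.60%, 3.59% and 3.82% of their PT sham means, where the 8 PT markers had 3.31% to 5.40%. In sham endothelial cells the shares were 2.64%, 2.79% and 1.94% beside 2.85% to 4.64%, and in sham stromal cells 3.11%, 1.61% and 3.08% beside 1.32% to 4.68%. All 3 were thus below the marker range in sham endothelial cells and inside it in the other sham groups. In stromal cells Amn had 2.02% after UUO, where the markers reached 1.36%, and after reversal Lrp2 had 1.76% and Amn 1.56%, where the markers reached 1.04%. The Amn share after UUO leans on replicate 1 at 1.06 FPKM, where the other stromal UUO samples had 0.26, 0.17 and 0.35 FPKM. The part of RNA from PT cells in the receptor values was not tested.

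**Figure D4:**
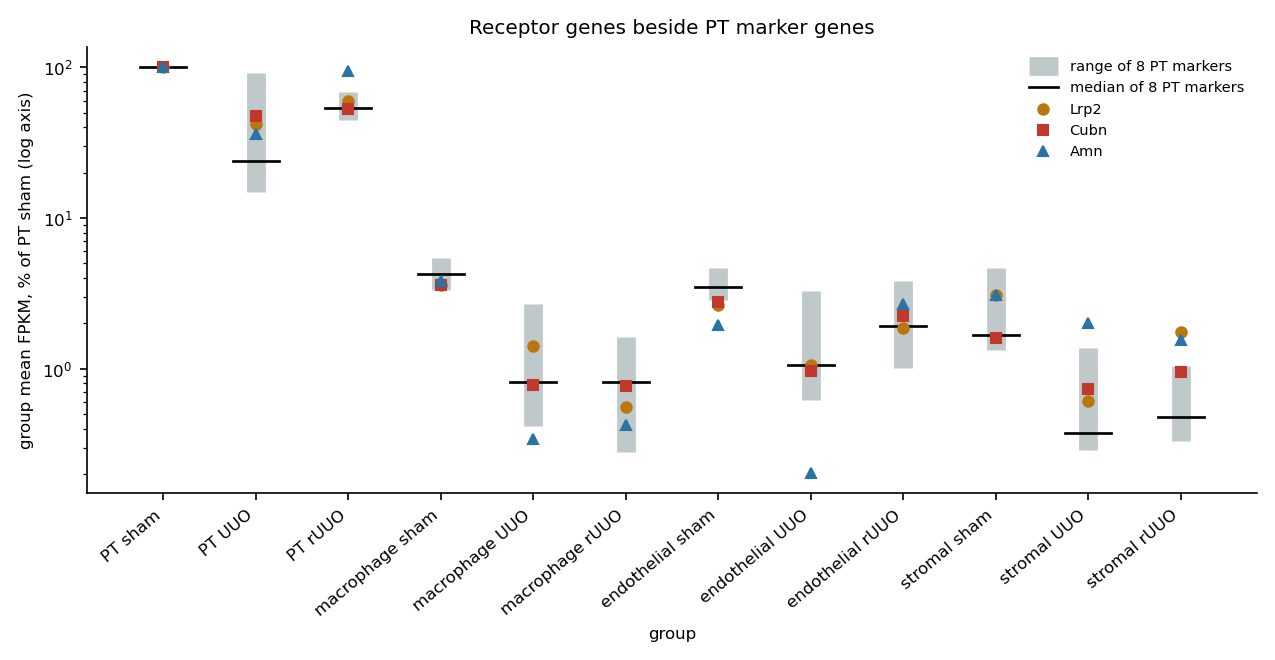
The vertical axis gives group mean FPKM as a percentage of the PT sham mean on a log axis for Lrp2, Cubn and Amn, with a grey bar for the range and a black line for the median of 8 PT marker genes in the same group. In the sham groups other than PT all 3 receptor genes stood at 1.61% to 3.82%, beside marker medians of 1.67% to 4.22%.

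In stromal cells 2 of the 6 members tested were called in UUO against sham, where 26.4% of all genes tested were called (Cubn and Amn were under the filter of a mean of 1 FPKM). Ehd1, the recycling ATPase, rose in stromal cells. It had 6.88, 5.67, 6.48 and 5.95 FPKM in sham and 18.0, 14.5, 21.6 and 38.9 FPKM in UUO. All 4 UUO samples lay above all sham samples, at a log2 change of 1.65 (SE 0.32, limma adjusted p = 0.00112). The 8 stromal markers summed to 1430 to 3157 FPKM in stromal sham and 9285 to 15113 in stromal UUO samples, and their part in the rise was not tested.

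Lrp2 fell in stromal cells from 7.57, 8.68, 4.03 and 5.86 FPKM to 0.71, 0.93, 2.65 and 0.82 FPKM. The groups did not overlap, and the log2 change was −1.76 (SE 0.33, limma adjusted p = 0.000974). In the same comparison Slc34a1 changed by −1.92 (called), and the summed PT markers went from 39.9 to 63.8 FPKM down to 6.52 to 17.3. Their part in the fall of Lrp2 was not tested. Clcn5 had 2.92 to 4.35 FPKM in sham and 5.37 to 8.51 in UUO without overlap, a change of 0.76 that was not called (limma adjusted p = 0.0512).

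In stromal rUUO against UUO 0 of 6 members were called by limma, beside 4.17% of all genes and 2777 genes at an unadjusted p under 0.05. Lrp2 had 4.44, 3.80, 3.44 and 3.13 FPKM in rUUO, above every UUO sample (1.11, limma adjusted p = 0.0737), and Ehd1 had 8.93, 13.3, 6.53 and 16.6 (−0.95, limma adjusted p = 0.107). A fit on all 4 populations called 2 members here. In rUUO against sham 0 of 6 were called, beside 17.2% of all genes and 4037 at an unadjusted p under 0.05.

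Of the recycling genes in the pathway list, 7 of 10 were lower and 0 higher in stromal UUO, a count that was the same under both other scalings, while Ehd1 rose. Ehd3 went from 91.5 to 7.70 FPKM (log2 change −3.53) and Ehd4 from 41.5 to 6.32 (−2.54), while Ehd2 had 90.3 and 101 FPKM (0.17, not called). These relatives of Ehd1 were named after their values were seen. In the same stromal samples the markers of the thick ascending limb and distal tubule summed to 313 to 479 FPKM in sham and 28.5 to 59.8 with UUO. The collecting duct markers summed to 49.4 to 137 FPKM in sham and 1.85 to 14.5 with UUO. The endothelial markers summed to 80.8 to 102 FPKM in sham and 41.2 to 64.0 with UUO. The part of any of these marker lists in the falls of the recycling genes was not tested. Over all roles 4 pathway genes of 54 were higher and 15 lower, where 26.4% of all genes tested were called, with a median change of −0.17 beside −0.07 for all genes.

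In macrophages 0 of the 6 members tested were called in UUO against sham by limma, beside 4.99% of all genes, and 2623 genes had an unadjusted p under 0.05. Lrp2 had 9.75, 7.92, 6.70 and 5.95 FPKM in sham and 1.36, 5.60, 2.66 and 2.26 in UUO (log2 change −1.20, limma adjusted p = 0.0619). Every UUO sample was below every sham sample. In rUUO it had 1.44, 1.20 and 0.89 FPKM, and against sham it was the 1 tested member called (−1.97, SE 0.37, limma adjusted p = 0.00896), beside 3.44% of all genes. With the replicate block it was not called (limma adjusted p = 0.183). Slc34a1 fell in the same macrophage comparison by 2.56, and the part of PT RNA in the falls of Lrp2 and Cubn was not tested.

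Dab2 in macrophages had 320.3, 284 and 330.2 FPKM in rUUO, below every UUO sample (459, 469.8, 379 and 419 FPKM). The change of −0.47 was not called (limma adjusted p = 0.507), and between macrophage rUUO and UUO 0.0% of all genes were called, with 945 at an unadjusted p under 0.05. Among pathway genes in macrophages, 4 of 52 were higher in UUO than in sham and 0 lower, beside 4.99% of all genes called.

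In endothelial cells 0 of the 7 members tested were called by limma in any comparison. The share of all genes called was 1.98% in UUO against sham, 0.0597% in rUUO against UUO and 1.77% in rUUO against sham, and 1788, 1369 and 1895 genes had an unadjusted p under 0.05. Rab11a, highest in this population, had 103, 124 and 164 FPKM in UUO against 66.7 to 94.3 in sham. The groups did not overlap, but the change of 0.71 was not called (limma adjusted p = 0.143). Lrp2 had 4.80, 3.64, 9.33 and 4.45 FPKM in sham and 2.19, 1.31 and 3.16 in UUO, also without overlap (−0.995, limma adjusted p = 0.344). Cubn, at 0.97 to 2.32 FPKM in sham and 0.30 to 0.81 in UUO, did not overlap either (−0.71, limma adjusted p = 0.496). The summed PT markers were 55.1 to 181 FPKM in the endothelial sham samples and 18.1 to 51.7 in the UUO samples. Their part in the lower Lrp2 and Cubn values was not tested. Of the 52 pathway genes tested 0 were called in endothelial cells.

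**Figure D5:**
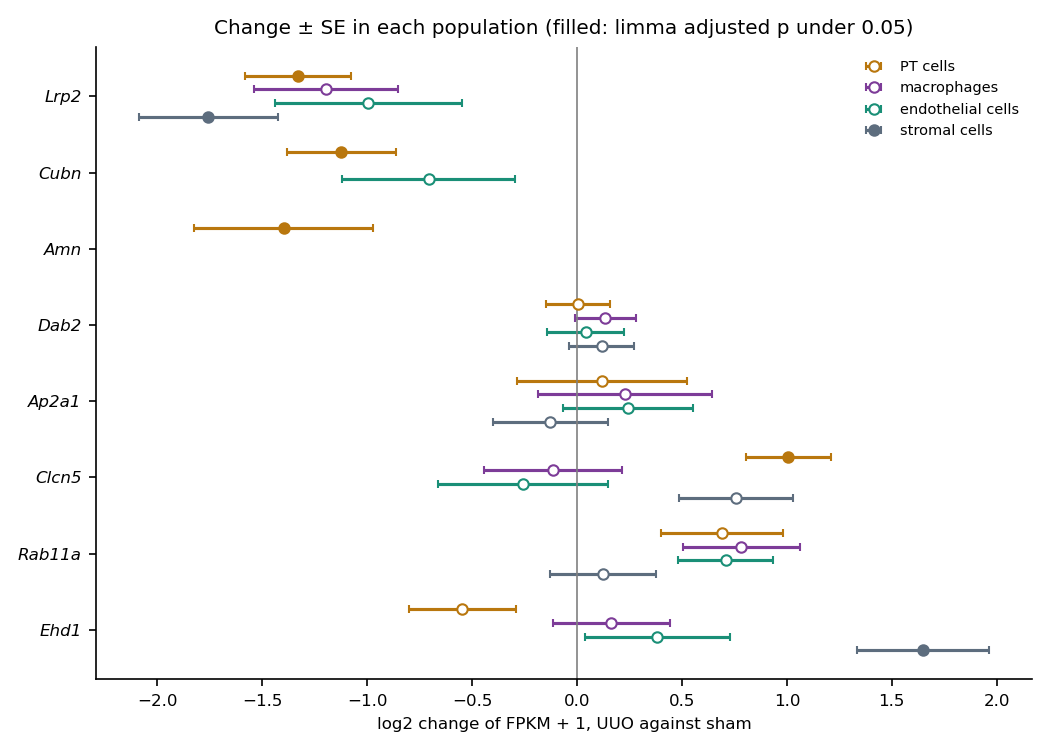
The horizontal axis gives the log2 change of FPKM + 1 in UUO against sham with its standard error for each gene in each of the 4 populations, filled where limma gave an adjusted p under 0.05, and genes under the filter in a population are left out. Clcn5 lay at 1.01 in PT cells and −0.11 in macrophages, and Ehd1 at −0.55 in PT cells and 1.65 in stromal cells.

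Whether PT cells changed differently from another population was tested in 1 fit over all samples, as the UUO change in PT cells minus that in the other population. In this fit the fall of the receptors was not shown to differ. Under the other settings 0 to 2 members were called in the difference from endothelial cells and 1 to 3 in that from stromal cells. For Lrp2 the difference was −0.13 against macrophages, −0.34 against endothelial cells and 0.43 against stromal cells (limma adjusted p = 0.898, 0.745 and 0.536), with standard errors of 0.48 to 0.49, and the values outside PT cells were low. For Cubn it was −0.08, −0.42 and −0.70, and for Amn −0.61, −0.98 and −1.18, and none was called.

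Clcn5 changed more in PT cells than in macrophages by 1.12 (SE 0.39, limma adjusted p = 0.0428) and than in endothelial cells by 1.26 (SE 0.40, limma adjusted p = 0.0332), but not detectably more than in stromal cells (0.25, limma adjusted p = 0.671). Both calls were lost with quantile normalization, after rescaling without mitochondrial genes and with the replicate block, and without any 1 of 9 samples for macrophages or of 8 for endothelial cells. Without macrophage sham replicate 3 the first difference was 0.88 (limma adjusted p = 0.12), and without endothelial sham replicate 3 the other was 1.03 (limma adjusted p = 0.0924). For Ehd1, which rose in stromal cells and was not called in PT cells, the change in PT cells minus that in stromal cells was −2.20 (SE 0.43, limma adjusted p = 0.000141), which was called under every other setting and with each sample left out. In each of these 3 tests 1 of the 8 members was called, beside 15.5% of all genes for macrophages, 11.1% for endothelial cells and 29.2% for stromal cells.

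As a description of likeness, genes were ranked by Pearson's r of log2(FPKM + 1) with Lrp2 over the 44 samples, which share populations and scaling. Cyp2j5 (r = 0.978), Cubn (0.976), Ugt3a2 (0.974), Slc47a1 (0.974) and Acsm1 (0.969) came first of 14332 genes, and Amn had rank 148 (0.928). Dab2 had an r of 0.25 with Lrp2, and its own closest genes were Susd3, Sema4d, Aoah, Tpd52 and Sap30 (r from 0.905 to 0.952). Over the 10 PT samples alone the genes closest to Lrp2 were Galnt11 (0.99), an enzyme known to attach sugars to megalin, Nus1, Osbpl6, Ptprd and Kcnj15 (0.978 to 0.988), and Cubn had rank 16 (0.961). Clcn5 had an r of −0.58 with Lrp2 over these PT samples.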

How the data were processed

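RNA from 4 sorted mouse kidney populations was turned into cDNA by the Ovation RNA-Seq System V2 kit, and paired reads of 150 bases were taken on an Illumina HiSeq. The authors deposited 1 table of FPKM, rounded to 2 decimals, for 53465 genes on GRCm38. The submitters' processing notes name FastQC, RSEM, Bowtie2, DESeq2 and mm10 without versions. Because FPKM scale to the mapped fragments of a sample, a change in abundant transcripts moves all other genes.

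The table has 46 value columns. A pair of them share a name (that of an endothelial UUO sample) and could not be told apart, which left 44, and no column is named for PT sham replicate 3. No columns were identical. Values were compared as log2(FPKM + 1) by limma 3.58.1 (lmFit, and eBayes with a trend) in R 4.3.3, in genes whose mean over the samples of a fit reached 1 FPKM, with Benjamini-Hochberg adjustment over all genes tested and a threshold of 0.05. Each population had 1 fit, sham populations another, and all samples together one more for differences between populations. The fit was tested on simulated data. Tables and exact permutation tests used Python 3.11.15 with scipy 1.17.1. Other settings tried were a pseudocount of 0.1, no filter, quantile normalization, rescaling without mitochondrial genes, the replicate number as a block, a fit on all 4 populations and each replicate left out. All members were described, and of the pathway list the 3 largest rises and 3 largest falls in PT cells among genes called whose groups did not overlap, besides the 5 genes most like Lrp2 or Dab2. Folr1, Fcgrt, Ehd2, Ehd3 and Ehd4 were named in addition, after their values were seen. The members, lists and tests were chosen with earlier results of these data known. The values of 1 marker list are not reported here.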

Additional observations from a re-analysis of the deposited data

Results flagged for a closer look

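Within groups of 4 samples, the highest or lowest sample stood apart from the other 3 by more than Dixon's 95% critical value (of the gap divided by the range, on the log2(FPKM + 1) scale) in 6 of 64 cases, and chance gives about 1 in 20. Stromal UUO replicate 3 had 2.65 FPKM of Lrp2, where the other 3 had 0.71 to 0.93. Macrophage UUO replicate 3 had 0.31 FPKM of Amn, where the others were listed at 0. Stromal sham replicate 4 had 63.4 FPKM of Dab2 against 57.0 to 58.1, and 26.1 FPKM of Rab11a against 38.8 to 41.6. Endothelial sham replicate 3 had 3.34 FPKM of Clcn5 against 1.21 to 1.36, and endothelial rUUO replicate 6 had 75.1 FPKM of Rab11a against 122 to 128.

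In 1 limma fit over all samples, the difference between populations in the change in UUO against sham was called for 2 genes. For Clcn5 the change in PT cells minus that in macrophages was 1.12 and minus that in endothelial cells 1.26. Both calls were lost with quantile normalization, after rescaling without mitochondrial genes, with the replicate block and without any 1 of 8 or 9 samples, and the first also with a pseudocount of 0.1 or no filter. For Ehd1 the change in PT cells minus that in stromal cells was −2.20.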

How the results depend on the processing

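In the tests of single genes, every member was followed in the PT comparisons of surgeries. Elsewhere only members already called were followed, so calls gained there are not in these counts. Under another setting, 234 values kept their direction and side of the threshold, 15 lost a call, 6 gained a call and 12 changed direction. With 1 replicate left out, 637 values kept both, 23 lost a call, 2 gained a call and 15, none of them called, changed direction. The cause of these changes was not tested.

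Of the changes of direction under another setting, most were with quantile normalization or rescaling without mitochondrial genes. For Dab2 in PT cells, UUO against sham was −0.33 with quantile normalization and −0.29 after rescaling without mitochondrial genes. For Ap2a1 it was −0.45, −0.092 and, with the replicate block, −0.024. For Rab11a in PT cells, rUUO against UUO was 0.18, 0.18 and, with the block, 0.16, and for Ehd1 rUUO against sham was 0.028 with the block. Between sham PT cells and macrophages Dab2 was 0.20 and 0.25 under these scalings, and Ap2a1 against endothelial cells 0.060 with quantile normalization.

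With 1 replicate left out, Dab2 in PT cells (UUO against sham) ranged from −0.027 to 0.060 and Ap2a1 from −0.23 to 0.55, Rab11a (rUUO against UUO) from −0.25 to 0.19, and in rUUO against sham Amn ranged from −0.65 to 0.22 and Ehd1 from −0.32 to 0.11.

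Counts of members called changed as follows. In PT UUO against sham the count of 4 was 3 to 5 under the other settings, and 3 to 5 with 1 replicate left out. In stromal UUO against sham the count of 2 was 2 to 3 in both. Between sham PT cells and macrophages, endothelial cells and stromal cells, leaving out 1 replicate gave 4 to 5, 6 to 7 and 7 to 8. Other settings gave 6 to 7 against endothelial cells and 6 to 7 against stromal cells. In PT rUUO against UUO the fit on all 4 populations called 1, and in rUUO against sham it called 2, as did rescaling without mitochondrial genes. In macrophages UUO against sham and rUUO against sham each had 2 with no filter on low values and in the fit on all 4 populations, and rUUO against sham had 0 with the replicate block. In stromal rUUO against UUO the fit on all 4 populations called 2. Between sham PT cells and macrophages quantile normalization called 7. The difference from macrophages had 0 with a pseudocount of 0.1, no filter, quantile normalization, rescaling and the block, that from endothelial cells had 2 with quantile normalization and 0 with rescaling or the block, and that from stromal cells had 3 with quantile normalization or rescaling. Leaving out 1 replicate gave 0 to 1 in macrophages (UUO against sham, 1 without macrophage UUO replicate 2), 0 to 1 in stromal rUUO against UUO (1 without stromal UUO replicate 3), 0 to 1 for the differences from macrophages and endothelial cells, and 1 to 2 for that from stromal cells.

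Replicate numbers were not treated as pairs. In PT cells 1 of 8 pairs of the same number had a correlation of deviations over 0.1, in the sham populations 2 of 21, and in the other populations none. With the replicate block 3311 genes were called in PT UUO against sham (3747 without it), 160 in rUUO against UUO (437), 115 in macrophage rUUO against sham (459) and 116 in stromal rUUO against UUO (585). Among the members, Rab11a gained a call in PT UUO against sham (0.79, limma adjusted p = 0.0372), and Lrp2 in macrophages and Clcn5 in both differences lost theirs. Over all genes, no filter called 203 in PT rUUO against UUO and 200 in stromal rUUO against UUO, and the fit on all 4 populations 35 in macrophage rUUO against UUO (0 to 2 under the other settings) and 67 in endothelial rUUO against UUO (0 to 9 under the other settings). Depth is not given by FPKM, so counting error could not be set beside low values such as those of Ap2a1 and Amn.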

Other observations

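Ratios between genes within a PT sample do not depend on the scaling of the sample, and 6 of them were formed after the values had been seen. The ratio of Lrp2 to Dab2 lay between 0.965 and 1.07 in sham samples, between 0.289 and 0.617 with UUO and between 0.711 and 0.75 with rUUO, with no overlap between any of these groups. The ratio of Cubn to Dab2 had means of 0.263, 0.122 and 0.168 in sham, UUO and rUUO, and the UUO and rUUO samples overlapped. That of Clcn5 to Dab2 had means of 0.0695, 0.144 and 0.185 without overlap. The ratio of Lrp2 to Cubn was 3.90 ± 0.131 in sham, 3.44 ± 0.343 in UUO and 4.41 ± 0.434 in rUUO (SD, n = 3, 4 and 3). Relative to the phosphate cotransporter gene Slc34a1 the receptors were higher in UUO than in sham, with means of 0.257 against 0.146 for Lrp2 and 0.0746 against 0.0376 for Cubn. Slc34a1 is 1 of 8 PT markers, which had 14.8% to 91.7% of their PT sham means in UUO (median 24.0%). Lrp2 had 41.7% and Cubn 47.1%, below the 60.2% of Hnf4a and the 91.7% of Slc7a13. Ratios to the other markers were not formed. The 18 comparisons had adjusted p from 0.103 to 0.8 in exact two-sided permutation tests that double the smaller one-sided p, where 4 samples against 3 cannot go below an unadjusted 0.0571 and 3 against 3 not below 0.1. In exact permutation tests on the size of the difference, chosen after seeing the data, 4 against 3 can reach 0.0286, 6 comparisons did, and the adjusted p were 0.0857 to 0.8. No ratio passed the threshold after adjustment in either form.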
